A study of Homo sapiens with 6 samples.

Results

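The regions described here are the H3K9me3 peaks on the arms of human chromosomes 5, 10, 11, 14 and 20, away from the centromeres. A peak was a member when its midpoint on hg19 lay on 1 of these 5 chromosomes and more than about 2 Mb from the centromere gap of the assembly, and the short arm of chromosome 14 was left out. The members numbered 247 of 1334 peaks in untreated cells, 455 of 1220 after 6 h of TGF-β1 and 51 of 272 after 24 h. The 5 chromosomes were chosen by their number of 6 h peaks per Mb, so their density at 6 h is a description and supports nothing. Chromosome 8, with 1.27 such peaks per Mb, was set apart and counts among the other arms. The cells were PC-3, a line with an abnormal karyotype from a bone metastasis of a prostate adenocarcinoma. All cultures had been without serum for 24 h, and the treated ones then received TGF-β1 at 5 ng/mL for 6 h or 24 h, while the control received none. There was 1 ChIP library and 1 input library per condition, from 1 cell line. The lists therefore differ in condition and in library at once, and these cannot be told apart. No test between conditions was possible.

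Trimethylation of histone H3 at lysine 9 is laid down by SUV39H and SETDB1 enzymes and is read by HP1 proteins, which compact the chromatin. In most cells the mark is densest on satellite repeats beside centromeres. On chromosome arms it is known from silent repeats, from clusters of zinc finger genes and from lineage genes that a cell type does not use. TGF-β1 is a secreted cytokine that signals through SMAD proteins and, in carcinoma cells, induces matrix genes and epithelial-mesenchymal transition.

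The lists hold narrow peaks with the authors' fold enrichment (the ChIP pileup at the summit over the local background, as a linear ratio) and −log10 q. No list gives a read total. From the fold and −log10 p, the summit pileup and local background of every member were worked out, and each pileup came out whole to within 0.01 fragments. Local backgrounds are given as multiples of the lowest one in the list, which was 1.89 fragments in untreated cells, 1.73 at 6 h and 2.66 at 24 h. A multiple near 1 means that no more background was found around the peak than over the genome at large. Intervals are exact at 95%, reflect counting error alone and treat peaks as independent, which neighbours on an arm may not be.

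The 9 arms make up 18.9% of the genome and held 18.5% of the control list (16.5 to 20.7), 37.30% of the 6 h list (34.6 to 40.1) and 18.75% of the 24 h list (14.3 to 23.9). The rest of each list includes the peaks beside centromeres, which enter these shares. Set against the arms of the other autosomes and X, outside the same windows, the 9 arms had 0.431 peaks per Mb in the control against 0.261, a ratio of 1.65 (1.42 to 1.92). At 24 h they had 0.0890 against 0.0300, a ratio of 2.97 (2.02 to 4.34). At 6 h, the list the choice was made on, they had 0.794 against 0.317. In both lists that did not enter the choice these arms also held more peaks per Mb than the other arms, a pattern known when the members were picked. With only the peaks whose −log10 q was at least 5, the 24 h ratio was 2.13, with an interval that includes 1 (0.879 to 4.87). The control ratio was 0.869 (0.560 to 1.31), on the other side of 1. The higher control density was thus not seen among peaks of high −log10 q. Among control peaks at or above the list's median fold the ratio was 1.59 (1.30 to 1.94), close to that of all peaks.

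The chromosomes differed among themselves. Chromosome 14 ranked first of 23 at 6 h, with 1.44 peaks per Mb, second in the control with 0.706 and first at 24 h with 0.127. Chromosome 10 had 0.778, 0.342 and 0.101 peaks per Mb (6 h, control, 24 h) and ranked 3, 10 and 2. Chromosome 11 had 0.703, 0.359 and 0.0703. Chromosome 5 had 0.581, 0.379 and 0.0977, and was the last chromosome inside the choice, next to chromosome 21, just outside it, with 0.534 at 6 h. Chromosome 20 ranked 4 in both the 6 h and the control list, with 0.714 and 0.535, and held 1 peak at 24 h (0.0178 per Mb, rank 16). Chromosomes 5, 10 and 11 thus stood near the middle of the order in the control, at ranks 8 to 10, and higher at 24 h, at ranks 2 to 7. The 24 h rate of chromosome 20 rests on its single peak.

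By arm, the name peak-rich did not hold for all 9. Chromosome arm 11p had 10 peaks at 6 h and 4 in the control, or 0.201 and 0.0806 per Mb, and ranked 25 and 34 of 41 arms. Arm 5p had 17 and 15, and ranked 17 and 15. Arm 14q held 61 control peaks and 11 at 24 h, and ranked 2 of 41 at 6 h with 1.44 per Mb. Arm 11q had 80, 42 and 5 (6 h, control, 24 h). Arm 10p had 24, 7 and 5 peaks, so that it ranked 9 at 6 h, 28 in untreated cells and 2 at 24 h. Over the 9 arms the order of density was much alike in the control and at 6 h (Spearman's rho 0.90) and unlike between the control and 24 h (rho -0.25). These are descriptions over 9 arms that share their libraries.

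**Figure D1:**
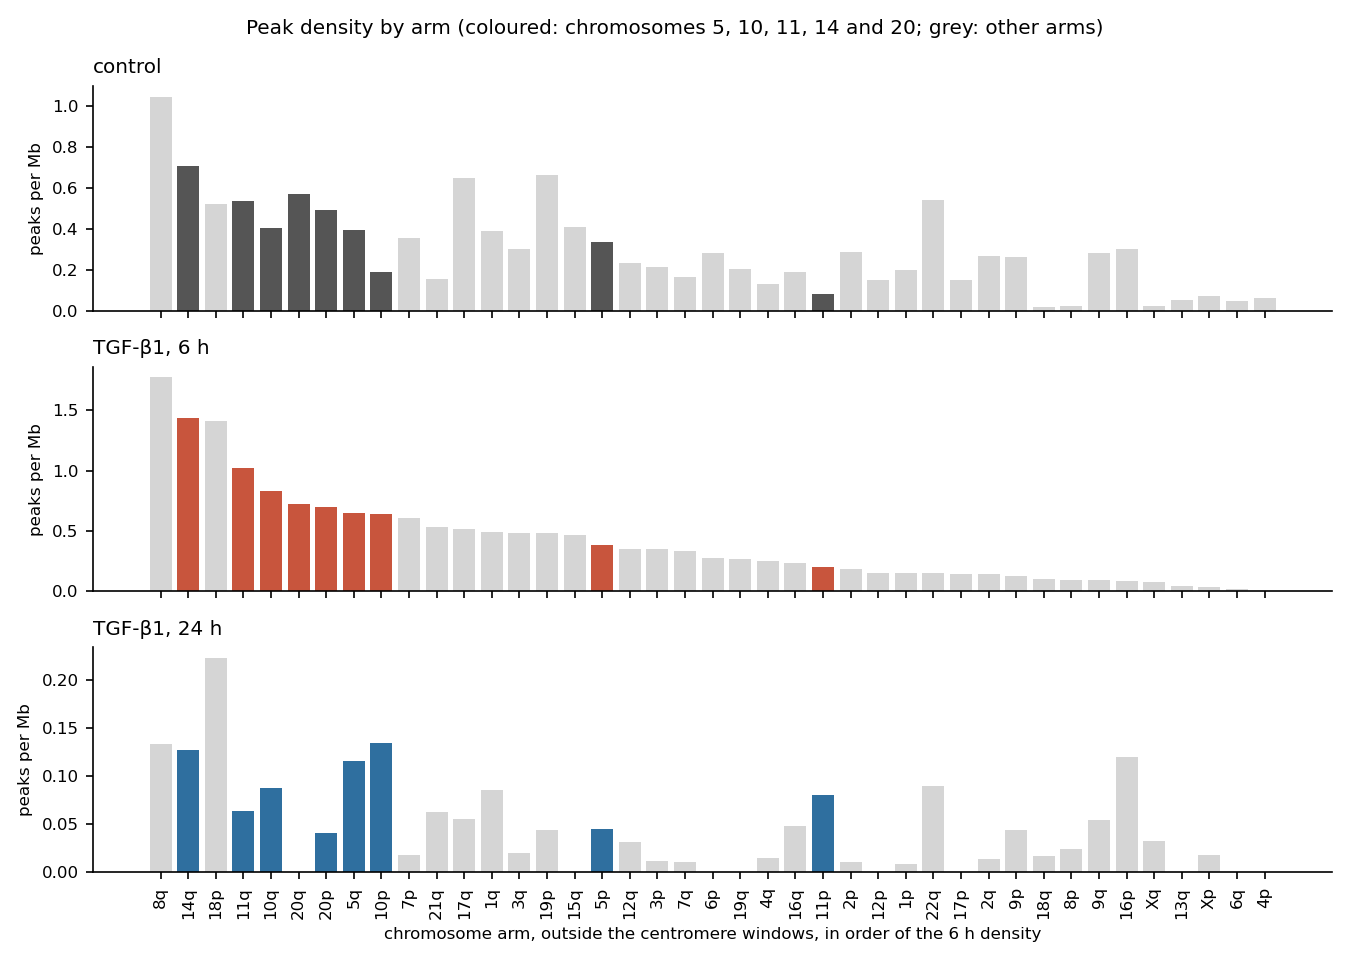
Peaks per Mb on each chromosome arm outside the centromere windows, 1 panel per list, in the order of the 6 h density, with coloured bars for chromosomes 5, 10, 11, 14 and 20 and grey bars for the other arms. Arm 14q stands at 1.44 per Mb at 6 h and 0.706 in the control, and arm 11p at 0.201 and 0.0806.

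Along the arms the peaks stood in a few long stretches with sparse stretches between them. Of 121 bins of 5 Mb, 37 had no 6 h peak, 41 no control peak and 23 no peak of any list. The 13 bins with the most 6 h peaks held 12 to 24 each and 45.9% of the 6 h members. Of the bins tied at 12, that of 10p from 30 Mb entered by order of position. The bin of 10p from 35 Mb, only 2.25 Mb long, and that of 10q from 60 Mb did not. The 13 bins, chosen on the 6 h list by count and not per Mb, held 90 of 247 control members (36.4%, 30.4 to 42.8). At 24 h they held 24 of 51 (47.1%, 32.9 to 61.5), on 11.3% of the length. Across the 121 bins the counts of the control and 6 h lists had a Pearson r of 0.756, those of 6 h and 24 h one of 0.644 and those of the control and 24 h one of 0.486, as descriptions over bins that share depth and base composition between lists. Such unevenness was not particular to these arms. On the other arms the fullest 10% of bins at 6 h, 47 of 468, held 52.5% of the 6 h peaks. They held 33.9% of the control ones and 51.5% of the 24 h ones.

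Runs of dense bins made up 6 stretches, chosen from these counts after they were seen, with ends at whole bins. They covered 18.7% of the length and held 280 of 455 members at 6 h (61.5%), 122 of 247 in untreated cells (49.4%) and 38 of 51 at 24 h (74.5%). In peaks per Mb they had 2.61, 1.14 and 0.354, against 0.376, 0.268 and 0.0279 on the rest of the 9 arms. The rest came close to the other arms of the genome, at 1.19 times their density at 6 h, 1.03 times in the control and 0.930 times at 24 h. Since the stretches were picked for their high counts, a lower density outside them follows in part from the choice.

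**Figure D2:**
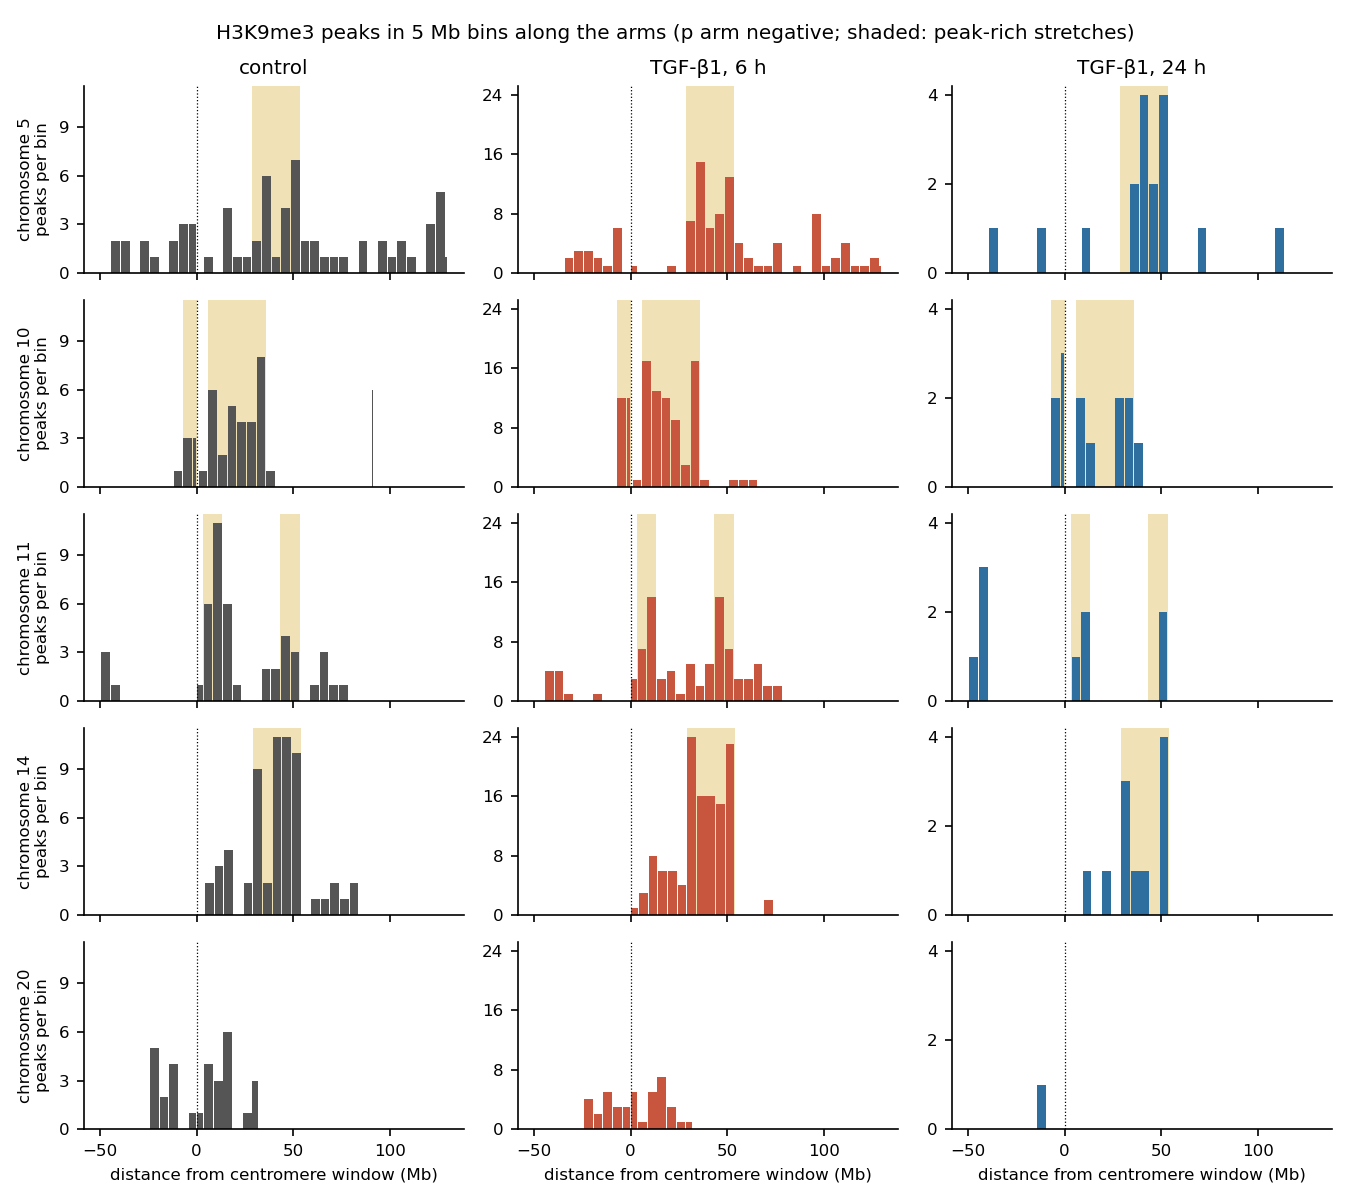
Peaks in bins of 5 Mb (y axis, counts, scaled per list) against the distance from the centromere window in Mb, with the p arm to the left, for 5 chromosomes (rows) and 3 lists (columns), with narrow bars for bins cut short by an arm end or window. The shaded stretches hold 280 of 455 peaks at 6 h, 122 of 247 in the control and 38 of 51 at 24 h.

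On chromosome 14 the stretch from 50 to 75 Mb had 94 peaks at 6 h, 43 in untreated cells and 9 at 24 h. It contains the bins with the most peaks of the 6 h list, those from 50 Mb (24 peaks) and from 70 Mb (23), and 2 of the 3 fullest of the control, from 60 and 65 Mb with 11 each. At 24 h its first bin held 3 peaks and its last bin 4. Beyond 75 Mb, towards the end of the long arm, 2 peaks at 6 h, 7 in untreated cells and 0 at 24 h remained on 32.3 Mb. The fall at the distal end was steep. The bin from 70 to 75 Mb had 10 control peaks beside its 23 at 6 h, and the bins from 75 to 90 Mb had no 6 h peak.

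Chromosome 10 had a dense stretch on each side of the centromere. That on the long arm from 50 to 80 Mb had 71 peaks at 6 h, 29 in untreated cells and 7 at 24 h, and its bins from 50 and from 75 Mb, with 17 each, came next in the 6 h list after those of chromosome 14. That on the short arm, from 30 Mb to the centromere window, had 24, 6 and 5, which left 0 peaks at 6 h, 1 in untreated cells and 0 at 24 h on the first 30 Mb of the chromosome. From 80 Mb to the end of the long arm, 55.5 Mb held 4 peaks at 6 h, 1 at 24 h and 7 in the control, and 6 of those 7 stood in 1 cluster at the very end.

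On chromosome 5 the 25 Mb from 80 Mb on had 49 peaks at 6 h, 20 in untreated cells and 12 at 24 h, so that it held most of the 17 peaks of that chromosome at 24 h. Its bins from 90 and from 100 Mb, with 4 each, were among the fullest of the 24 h list. Between the centromere window and 80 Mb there were 2, 7 and 1. On chromosome 11 the stretch from 60 to 70 Mb had 21 peaks at 6 h, 17 in untreated cells and 3 at 24 h, and that from 100 to 110 Mb had 21, 7 and 2. The bin from 65 Mb on, with NEAT1 and MALAT1, had 11 control peaks, as many as any. The short arm of chromosome 11 from 10 Mb to the centromere window had 6 peaks at 6 h and 0 in both other lists. Chromosome 20 had no such stretch, and no bin of it held more than 7 peaks at 6 h or 6 in the control.

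The local background moved with this pattern. In the 6 stretches its median was 2.08 times the genome-wide level at 6 h (1.94 to 2.18). It was 1.81 times in the control list (1.53 to 2.26) and 1.97 times at 24 h (1.56 to 2.87). On the rest of the 9 arms it was 1.36 (1.25 to 1.42), 1.22 (1.11 to 1.36) and 1.26 (1.00 to 1.55). The intervals of the stretches and of the rest did not overlap in any list. On the other arms the median was 1.30 (1.26 to 1.37) at 6 h, 1.40 (1.36 to 1.52) in the control and 1.42 (1.19 to 1.82) at 24 h. The 24 h interval of the other arms overlapped that of the stretches. The rest stood below the other arms in the control and at 24 h, and above them at 6 h. The background is known at called peaks only, and the caller set each peak against it, so these are descriptions. Its part in the number of peaks was not tested.

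By stretch, the short arm of chromosome 10 had the highest median background at 6 h, 2.73, and at 24 h, 4.26, with 2.75 in the control list. Chromosome 14 had 2.62 at 6 h, 2.04 in the control list and 2.97 at 24 h, and the long arm of chromosome 10 had 2.11, 1.66 and 1.78. The stretch of chromosome 11 at 60 to 70 Mb had 2.16, 3.82 and 2.92, the control value being the highest of that list. Within it, 84.5 kb at NEAT1 and MALAT1 held 8 of 21 peaks at 6 h, 10 of 17 in the control and 2 of 3 at 24 h. The median backgrounds of those peaks were 2.36, 4.53 and 3.68. Chromosome 5, at 1.59, 1.32 and 1.47, and chromosome 11 at 100 to 110 Mb, at 1.37, 1.22 and 1.2, were nearer the level of the rest. At 6 h the interval of chromosome 5 (1.42 to 1.71) still lay just above that of the rest (1.25 to 1.42). The interval of chromosome 11 at 100 to 110 Mb (1.18 to 1.80) overlapped it. So not every dense stretch had a background clearly above the rest. Over the arms of the genome with at least 3 solved peaks, density and median background had a Spearman's rho of 0.458 at 6 h and 0.554 in the control, each over 38 arms that share a library.

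**Figure D3:**
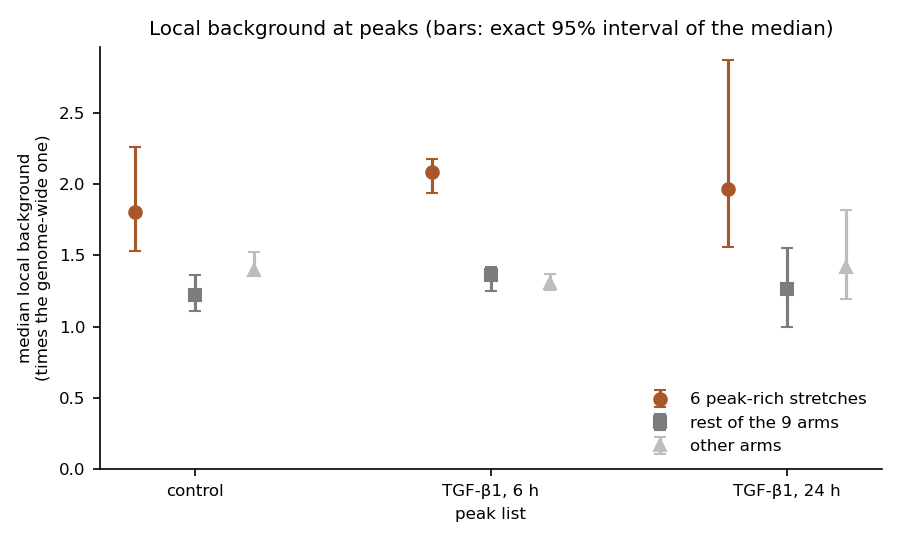
Median local background at peaks (y axis, times the genome-wide background) in each list, with the exact 95% interval of the median as bars, for the 6 peak-rich stretches, the rest of the 9 arms and the other arms. The stretches stand at 1.81 to 2.08 and the rest at 1.22 to 1.36.

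The member peaks were mostly weak and narrow. Their median fold was 4.01 in untreated cells, 3.997 at 6 h and 3.64 at 24 h, against 4.04, 4.25 and 3.89 on the other arms of the same lists. Their median width was 223, 268 and 224 bp, against 232, 258 and 240 bp on the other arms. The shortest member was 179, 208 and 193 bp wide, and the shortest peak on the other arms 179, 208 and 192 bp. The lower limit of width thus differed by list. A −log10 q of at least 5 was reached by 29 of 247 members in the control (11.7%), where 22.3% of peaks on the other arms did. At 6 h 28 of 455 did (6.15%), against 7.17% on the other arms, and at 24 h 10 of 51 (19.6%), against 27.3%. The share among members was the lower in each list, and at 6 h it lay near that of the other arms. In the 6 stretches the median fold was 3.77 at 6 h, 3.73 in untreated cells and 3.42 at 24 h, below the 4.26, 4.12 and 3.78 of the rest, while the median summit pileup was higher, with 16, 16 and 20.5 fragments against 14, 13 and 17. Over all members the median summit pileup was 15 fragments in both the control and the 6 h list and 19 at 24 h, so a single weak peak rests on few fragments.

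At 6 h the members stood close together. The median distance to the next 6 h peak on the arm was 122 kb, against 339 kb on the other arms, and 210 of 455 members (46.2%) had a neighbour within 100 kb, against 24.5%. The closeness within 100 kb is tied to the density that chose the chromosomes. In the control 57 of 247 members (23.08%) had such a neighbour, against 31.41% on the other arms, and 17 (6.88%) had one within 10 kb, against 21.99%. Both control shares were lower on these arms than on the others, while the median distance was also the shorter, at 403 kb against 446 kb, and neither difference was tested.

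The lists shared few member peaks. Of the 455 members at 6 h, 13 overlapped a control peak by at least 1 bp (2.86%, 1.53 to 4.84), where 2.30% of 6 h peaks on the other arms did. Of the 51 members at 24 h, 5 overlapped a control peak (9.80%, 3.26 to 21.4), against 15.2% on the other arms, and 7 a 6 h peak (13.7%, 5.70 to 26.3), against 7.58%. In the other direction 15 of 247 control members overlapped a 6 h peak (6.07%, against 2.97%) and 5 a 24 h peak (2.02%, against 1.57%), and 7 of 455 members at 6 h a 24 h peak (1.54%, against 0.717%). Over all peaks, those near centromeres included, 51.5% of 24 h peaks overlapped a control peak and 17.3% a 6 h peak. For all 6 h peaks the shares were 5.25% (control) and 3.77% (24 h). For all control peaks they were 5.02% (6 h) and 9.82% (24 h). The share on the other arms fell inside the interval in 5 of the 6 cases and below it for control members found at 6 h (3.44 to 9.82), of which 8 of 15 stood in clusters on chromosome 11. Without the 2 clusters there, an alternative added after the data had been seen, 1.58% of 6 h members overlapped a control peak (0.636 to 3.22), 4.35% of 24 h members a control peak (0.531 to 14.8) and 6.52% of 24 h members a 6 h peak (1.37 to 17.9). Each of these values lay below that of the other arms. The other arms kept their own clusters, so the sides are unlike and no conclusion is drawn from this order. Merged over the lists, the members formed 730 regions, of which 17 had a peak in more than 1 list and 4 in all 3. In the 6 dense stretches 12 of 424 regions had a peak in more than 1 list, and on the rest of the 9 arms 5 of 306. No count of merged regions over the other arms stands beside these. By peak, the shares on the other arms were low as well, at 0.717% to 15.2% by direction. Of the 28 members at 6 h with a −log10 q of at least 5, 9 were found in the control, and of the 427 below it, 4. On the other arms 12 of 50 and 4 of 647 were.

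The 4 regions with a peak in all lists were on chromosomes 5 and 11. Gene names for these and the following regions come from general knowledge of hg19 positions, not from an annotation at hand. At 5:121412506-121413174, in the LOX gene for lysyl oxidase, the enzyme that cross-links collagen and a known target of TGF-β1, the fold was 5.05 in untreated cells, 17.2 at 6 h and 3.82 at 24 h. The 17.2 is the highest fold of all members. The summit pileup there was 9.01, 26.7 and 4.88 times the genome-wide background, and the local background was 1.36, 1.00 and 1.00 times. Relative to its own list, the 6 h peak was the highest of the 3 by pileup as well as by fold, and with 669 bp it was the widest. The control and 6 h peaks ended at the same base.

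At 11:5247807-5248326, in the beta-globin gene, which is silent outside red blood cell precursors, the fold was 2.03 in untreated cells, 10.4 at 6 h and 2.34 at 24 h. The summit pileup was 586, 677 and 310 times the genome-wide background and the local background 288, 64.3 and 132 times. All of these were far above those of a usual member. The pileup was of like size in the control and at 6 h, and the local background was the lowest at 6 h. Beside it, at 11:5246699-5246957 in the same gene, a peak was listed at 6 h alone, with a fold of 15.9, a pileup of 232 times and a background of 14.1 times. Within the same cluster of 38.4 kb, the peak at 11:5221581 had a fold of 6.97 at 6 h and of 8.19 at 24 h, with a background of 1.00 in both, and 24 h alone had one at 11:5259199-5260000 with a fold of 5.46.

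The other regions common to all lists were at NEAT1 and MALAT1, neighbouring genes on 11q13 for abundant nuclear long noncoding RNAs. This cluster, 11:65190314-65274826, was the largest of the members, with 10 control peaks, 8 at 6 h and 2 at 24 h over 84.5 kb. At the start of NEAT1 the peak had a fold of 5.74 in untreated cells, 5.93 at 6 h and 6.05 at 24 h, with pileups of 37.6, 16.2 and 19.5 times the genome-wide background. In MALAT1 the 6 h list had a peak of 4891 bp, 11:65266560-65271450, with a fold of 7.59, the widest of all members, and after a short gap another of 1670 bp, 11:65271818-65273487, with a fold of 7.35. The control had 3 peaks that overlapped the first, with folds of 2.68 to 2.88, and none that overlapped the second. The 24 h list had 1, with a fold of 2.80, on the first. The 6 h peaks were thus fewer and wider here than those of the control. Over the whole cluster, control peaks covered 4715 bp, 6 h peaks 10167 bp and 24 h peaks 1083 bp.

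Of the regions in exactly 2 lists, those with the highest folds included a pair at 7SL RNA genes on 14q21. The 7SL RNA is the scaffold of the signal recognition particle and is made at high levels by RNA polymerase III. At RN7SL2, 14:50329278-50329555, the fold was 9.92 at 6 h and 2.39 at 24 h, with pileups of 184 and 83.8 times the genome-wide background. At RN7SL1, 14:50053310-50053587, the fold was 9.80 and 3.49, with pileups of 122 and 55.6 times. The control list had no peak at either. The 6 h peaks at both were 278 bp wide. The genes are near-identical, with further copies elsewhere, and reads of such copies cannot be assigned with certainty. Local backgrounds were 17.99 and 11.95 times the genome-wide one at 6 h and 34.8 and 15.7 times at 24 h.

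The other regions of this rank were on chromosomes 5, 10 and 11. At 10:69444100-69444439 the control fold was 7.82, the highest of the control members, and the 6 h fold 9.14, with backgrounds of 3.40 and 3.42 times and starts that differed by 5 bp. At 5:115434548-115434767 the control and 6 h peaks had the same edges, folds of 2.67 and 8.45, and backgrounds of 46.2 and 11.8 times. At 5:89440854, with a common start, folds were 3.63 and 7.13 and backgrounds 18.02 and 6.49 times. The remaining region by this rule is the one at 11:5221581, given above.

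Where a control and a 6 h peak overlapped, the 6 h list had the higher fold in 14 of 15 pairs. In 13 of these pairs the local background, as a multiple of the genome-wide level, was also the lower at 6 h. The pileup was the higher at 6 h in 6 of 15. The fold is the pileup over the background, so the orders of fold and background are not independent. Pairs on the other arms were not counted in this way, so nothing particular to these arms can be read from the counts. At LOX fold and pileup both stood higher at 6 h. The pair at 5:101220579-101220963 was the exception, with a fold of 5.05 in the control and 3.83 at 6 h. These folds belong to their own lists and measure no change of the mark. Of the 15 pairs 8 lay in the chromosome 11 clusters, and 3 of them share the wide MALAT1 peak.

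**Figure D4:**
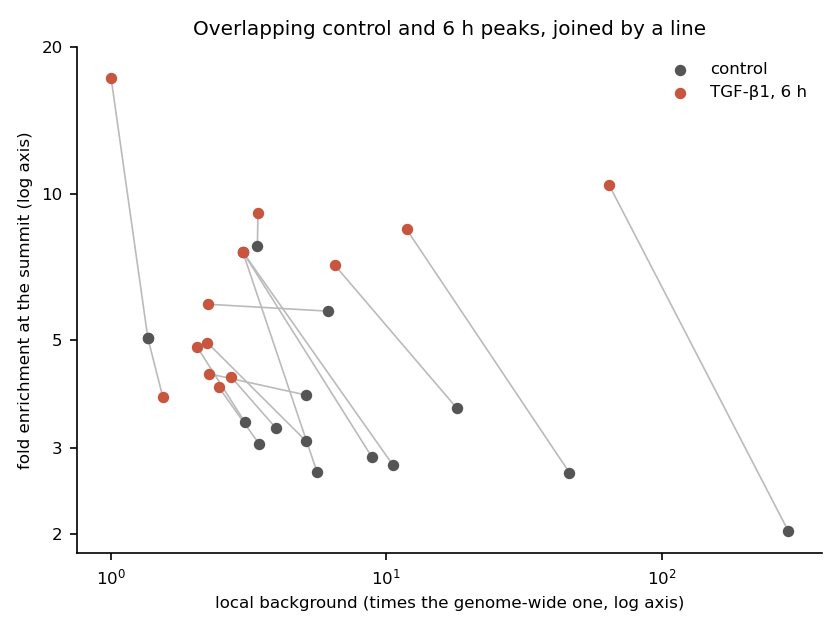
Fold enrichment at the summit (y axis, log) against the local background in multiples of the genome-wide level (x axis, log) for the 15 pairs of overlapping control and 6 h peaks, joined by lines. In 13 pairs the 6 h point lies up and to the left, with the higher fold and the lower background.

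Chains of at least 6 peaks from any list, within 100 kb of the next, numbered 8 on these arms. Apart from those at beta-globin and at NEAT1 and MALAT1, they were of different kinds. At the very end of 10q, 10:135478258-135501068, the control list had 6 peaks with folds of 2.16 to 5.05 and −log10 q of 4.26 to 19.2, and the lists at 6 h and 24 h had 0. By general knowledge this is the D4Z4 macrosatellite array, a repeat known to carry H3K9me3, whose near-identical copy lies on 4q, so that reads may be assigned to either. The background there had a median of 3.91 times. On chromosome 14, the chain at 14:73229319-73556330 had 3 control peaks, 7 at 6 h and 2 at 24 h, with folds of 2.42 to 3.58 and median backgrounds of 5.44, 4.76 and 3.99 times. The other 2 on chromosome 14, at 14:60709526-61084592 and 14:71461496-71629337, had 4 and 2 in the control, 5 and 4 at 6 h and 0 at 24 h. That at 10:54013736-54354945 had 2, 8 and 0, and that at 5:89885430-90070651 had 0, 5 and 1. These 5 lay inside the dense stretches, with folds of 2.42 to 5.12, and unlike the 10q end they were formed mainly by weak 6 h peaks.

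Among the strongest members of a single list, the control had 5:17581900-17582202 with a fold of 6.89, 11:134709395-134709627 with 6.58 and 5:91011064-91011292 with 5.89. The local background was 1.7 times the genome-wide one at the first and 1.00 times at both others. At 24 h these were 5:161594903-161595224 with a fold of 5.73 and 5:85814534-85814778 with 4.94, with backgrounds of 1.00 and 1.37 times. None of these 5 had an overlapping peak elsewhere. All 5 positions of highest fold at 6 h are named above, and 11:5246699 alone had no partner in another list.

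A list of 12 loci on these arms, written down by their approximate positions, holds places where silent or strongly transcribed genes are known. Peaks of any list were found at 5 of 12. NEAT1 and MALAT1 had 10, 8 and 2 (control, 6 h and 24 h) and a locus of 0.4 Mb around the 7SL genes 0, 4 and 2. Its 6 h peaks include 14:50089767-50090306 and 14:50099631-50099855, with folds of 3.32 and 3.45. These lay apart from the peaks at RN7SL1 and RN7SL2. The olfactory receptor and beta-globin cluster of 11p15 had 1, 3 and 3, the olfactory receptor cluster of 11q12 had 1, 2 and 0 and that of 11q24 had 1, 1 and 0. The protocadherin clusters, the T-cell receptor alpha locus, the immunoglobulin heavy chain locus, the cystatin cluster and the imprinted domains of H19, DLK1 and GNAS had 0 in each list. Together the 12 loci held 13, 18 and 7 members, where an even spread over the arms would give 5.56, 10.2 and 1.15, and 10, 8 and 2 of them stood at NEAT1 and MALAT1. The loci were chosen with earlier results of these data known. Their excess over an even spread thus follows in part from the choice and supports nothing. A count of 0 here says that no peak was listed, and even spread would give at most 1.03 peaks at 6 h in any locus with a 0.

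At the edges of the windows the nearest members lay 21.8 to 16479 kb outside, with folds of 3.26 to 5.22, and the nearest peaks on the other side 391 to 5049 kb inside, with folds of 2.60 to 4.77. The windows held 75 control peaks, 20 peaks of the 6 h list and 32 of the 24 h list.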

How the data were processed

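H3K9me3 ChIP-seq peak lists of PC-3 cells were used, 1 per ChIP library, called separately. The submitters' processing notes name MACS2 2.1.1.20160309 for peaks, BWA for alignment, Trimmomatic for trimming, FastQC 0.11.9 for quality and hg19 (GRCh37) as the build. The sources used here do not give the caller's threshold. The deposited lists hold, for each peak, the authors' score, fold (a linear ratio), −log10 p and −log10 q. In the deposited names of peaks, both treated lists mention filtering and the control list does not, and a difference in how they were made cannot be told apart from treatment.

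The other arms are those of the other autosomes and X, more than 2 Mb from centromere or large heterochromatin gaps. Lengths and gaps of the hg19 chromosomes were typed from general knowledge. Pileups and backgrounds were solved under the Poisson model of MACS2 and accepted within 0.01 of a whole number, which was tested on simulated peaks. Python 3.11.15, pandas 2.3.3 and SciPy 1.17.1 were used. Peaks named are the 5 of highest fold and of highest −log10 q in each list, regions in all lists, the 6 of highest fold in 2 lists, and all clusters. The stretches, LOX, the D4Z4 array and the single pairs were named after their values were seen. Members and lists were chosen with earlier results of these data known. The reference tables used GRCh38 positions, and they were therefore not joined to the peaks.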

Additional observations from a re-analysis of the deposited data

How the results depend on the processing

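No paired analysis was possible because every condition was profiled with a single ChIP library. Of 75 alternatives, 51 moved a result by less than its interval. When peaks were held to a −log10 q of 5 or more, the share of each list on the arms was 5.26% (control), 25.9% (6 h) and 6.10% (24 h). Under this cut the density ratio was 0.869 in the control, a reversal, 2.15 at 6 h and 2.13 at 24 h (0.879 to 4.87). With both lists cut, overlaps of members with the control list were 25% for 6 h peaks and 30% for 24 h peaks. Of 24 h members, 50% then overlapped a 6 h peak. These shares were not computed on the other arms. With only the 6 h list cut, 9 of 28 members and 12 of 50 peaks on the other arms overlapped a control peak. The median background at members that passed the cut was 2.72, 2.16 and 2.63 times (control, 6 h, 24 h). The share in the 10% of bins with the most 6 h peaks was 27.6%, 75% and 70%, in the same order. Those bins were chosen anew on the 28 members at 6 h that passed the cut, so the 75% follows in part from the choice. Among peaks of at least their list's median fold, the shares on the arms were 21.3%, 31.8% and 27.9%, and the 6 h density ratio 1.84. That ratio was 3.14 without chromosome 8 among the other arms and 2.15 without chromosome 14. Without the 6 stretches, an alternative added after the data had been seen, the density ratios were 1.03, 1.19 and 0.930, the last a reversal. The other arms kept their own dense bins there, so the sides are unlike and no conclusion is drawn from these ratios. Bins of 10 Mb gave 29.96% for the control. The cause of these shifts was not tested, except that fewer peaks enter under the stricter cuts. Leaving out the chromosome 11 clusters, also added later, gave overlaps of 1.58% for 6 h peaks in the control list, 4.35% for 24 h peaks in the control list and 6.52% for 24 h peaks in the 6 h list, each more than 1.5 times below the value with them. Alternatives of the overlap were run in 3 of its 6 directions, and none for fold, width or the listed loci.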
